A study of Mus musculus with 12 samples.

Results

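The genes described here encode the respiratory chain and ATP synthase of the mouse. They are the protein-coding genes whose symbol starts with Ndufa, Ndufb, Ndufc, Ndufs, Ndufv, Sdh, Uqcr, Cox4, Cox5, Cox6, Cox7, Cox8, Atp5, mt-Nd, mt-Co, mt-Cytb or mt-Atp, with pseudogenes left out. The rule found 113 genes among the 56748 gene IDs counted, of which 21871 were protein coding. Mitochondrial DNA encodes 13 of them and nuclear DNA 100. The nuclear genes comprise 86 subunits, 12 assembly factors that the prefixes also pick up (Ndufaf1 to Ndufaf8 and Sdhaf1 to Sdhaf4), the ATP synthase inhibitor Atpif1 and the gene Atp5s. By annotation symbol 110 were matched, and Ndufb1-ps, Usmg5 and Atpif1 were matched through their RefSeq names Ndufb1, Atp5md and Atp5if1. Ndufb1-ps is protein coding by RefSeq but not by the annotation that gave the symbols.

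RNA was measured in cells of the Eµ-Myc lymphoma, which arises from mouse B cells because the immunoglobulin heavy chain enhancer Eµ drives a Myc transgene in them. Each of the 3 groups had 4 libraries and carried the same transgene. The culture group was taken straight from cell culture. The lymphatic group was sorted from lymph nodes of C57BL/6J mice at day 11 after tumor injection, when cells had spread through lymphatic vessels. The hematogenous group was sorted from lymph nodes at day 18, when cells had spread through the blood. Route and day changed together and cannot be told apart, and host tissue, sorting and time also separate both lymph node groups from culture. Lymph node is the labelled tissue of the cultured cells too, and the labels do not give the sex or age of the mice or the marker used for sorting. They do not say whether replicates came from separate animals or cultures, so each p-value reflects nothing beyond the spread among libraries, which may be technical.

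Electrons enter the chain at complex I, the NADH dehydrogenase, or complex II, succinate dehydrogenase, and pass through coenzyme Q, complex III and cytochrome c to complex IV, cytochrome c oxidase, which reduces oxygen. Complexes I, III and IV pump protons, and ATP synthase, called complex V, uses the gradient to make ATP. All complexes except complex II combine subunits encoded in mitochondrial DNA with subunits made in the cytosol, so that 2 genomes supply each assembly. Several subunits of complex IV exist as paired isoforms, of which one is typical of heart and skeletal muscle.

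Libraries held 5286775 to 25302016 counts assigned to genes, and values below are CPM, counts divided by the library total after scaling by TMM, a factor that corrects for composition, and set to a common round total. All 7 B cell markers had counts in every group, with summed CPM of 4964 to 5311 in culture, 5303 to 6274 for the lymphatic group and 6584 to 7199 for the hematogenous group. The 8 T cell markers summed to 0 to 0.543 CPM in culture, where Cd3d, Trbc1, Trbc2, Cd4 and Cd8a had 0 counts. Their sum was 17.6, 27.6, 30.7 and 78.5 CPM in lymphatic 1 to 4 and 4.97 to 14.2 CPM in the hematogenous group. The 7 myeloid markers summed to 16.5 to 22.2, 27.3 to 69.5 and 21.99 to 28.1 CPM in the same order, highest in lymphatic 4, with Lyz2 at 0 counts in culture. The 4 plasma cell markers summed to 104 to 115, 87.7 to 124 and 55.2 to 80.2 CPM, and within the lymphatic group lymphatic 4 was highest for these and for the 4 NK cell markers (18.7 to 22.6, 0.405 to 3.09 and 0 to 0.781 CPM, Ncr1 and Gzma at 0 counts in culture and Ncr1 in the hematogenous group). The 4 neutrophil markers summed to at most 1.60 CPM in any library, with S100a8 at 0 in culture. The 6 stromal and endothelial markers summed to 75.2 to 80.6, 80.0 to 114 and 139 to 167 CPM, lowest of its group in lymphatic 4, with Pdpn at 0 counts in all groups, Col3a1 at 0 in both lymph node groups, and Col1a1 and Lyve1 at 0 in the hematogenous group. The part of these other cells in the results below was not tested. In bulk RNA, fewer cells of a type and less RNA per cell cannot be told apart.

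Library 4 of the lymphatic group stood apart in nuclear respiratory chain transcripts. The 100 nuclear genes took 1.34%, 1.19%, 1.21% and 1.19% of assigned counts in culture 1 to 4. They took 1.27%, 1.24%, 1.28% and 2.00% in lymphatic 1 to 4. In hematogenous 1 to 4 they took 1.12%, 1.12%, 1.22% and 1.11%. The share in lymphatic 4 (95% Wilson interval 1.996% to 2.008%, counting error only) lay above all 11 other libraries, whose highest value was 1.34%. Of 93 tested nuclear members annotated as protein coding, 89 were higher in lymphatic 4 than in each of lymphatic 1 to 3, and 87 were higher than in all 11 other libraries. Over all 10728 tested coding genes the same counts were 4201 and 2960. The median fold of lymphatic 4 over lymphatic 1 to 3 was 2.08 for these members, beside 1.00 for all 10728 tested coding genes.

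The excess in lymphatic 4 differed with transcript length, among the members as among all coding genes. Members with transcripts shorter than 800 nt had a median fold of 2.35 (46 genes), those of 800 to 1500 nt 1.91 (26 genes), and those of 1500 nt or more 1.47 (21 genes). For all tested coding genes the same classes gave 2.13, 1.68 and 0.908. Spearman's rho between the log2 ratio and length was −0.615 over the 93 members and −0.685 over the 10728 genes, where all points share the same libraries. With the longest transcript of each gene in place of the one chosen, the fold of the long class was 1.65 and rho over the members −0.555. Of the 21 members of 1500 nt or more, 18 were higher in lymphatic 4 than the mean of lymphatic 1 to 3. The exceptions were Ndufs1, Sdha and Uqcrc2, which encode the largest complex I subunit, the flavoprotein of complex II and a core protein of complex III. For Uqcrc2, lymphatic 4 lay within the range of lymphatic 1 to 3. Cytosolic ribosomal proteins took 15.8% of counts in lymphatic 4 and 7.52% to 9.78% in the other 11 libraries. Their median fold was 2.50 below 800 nt (39 genes), 2.13 from 800 to 1500 nt (28 genes) and 2.05 from 1500 nt (10 genes). Reads aligned to more than 1 place made up 13.2% in lymphatic 4 and 9.64% to 10.6% elsewhere. With GC content, the share of G and C bases, rho for lymphatic 4 was 0.497 over the members and 0.318 over all coding genes. For lymphatic 2 against lymphatic 1 and 3 it was −0.612 and −0.722. Without lymphatic 4, rho of the lymphatic change against culture over the members was 0.462 with length and −0.33 with GC content. Over all coding genes these were −0.0454 and −0.321. The part of length, of GC content or of the RNA behind them in the group comparisons was not tested. For this reason counts of called members are given with and without lymphatic 4.

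**Figure D1:**
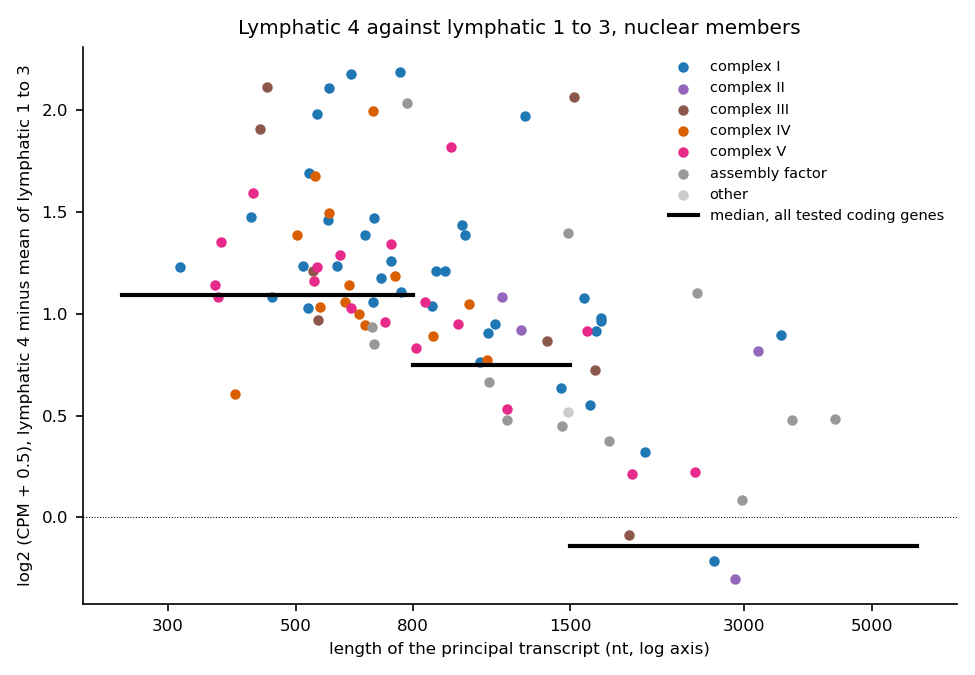
Each point is 1 of 93 nuclear members, placed by transcript length (nt, log axis) and by its log2 difference between lymphatic 4 and the mean of lymphatic 1 to 3. Black lines give the median of all tested coding genes in 3 length classes; points fall from a median fold of 2.35 below 800 nt to 1.47 from 1500 nt, and Ndufs1, Sdha and Uqcrc2 lie below 0.

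**Figure D2:**
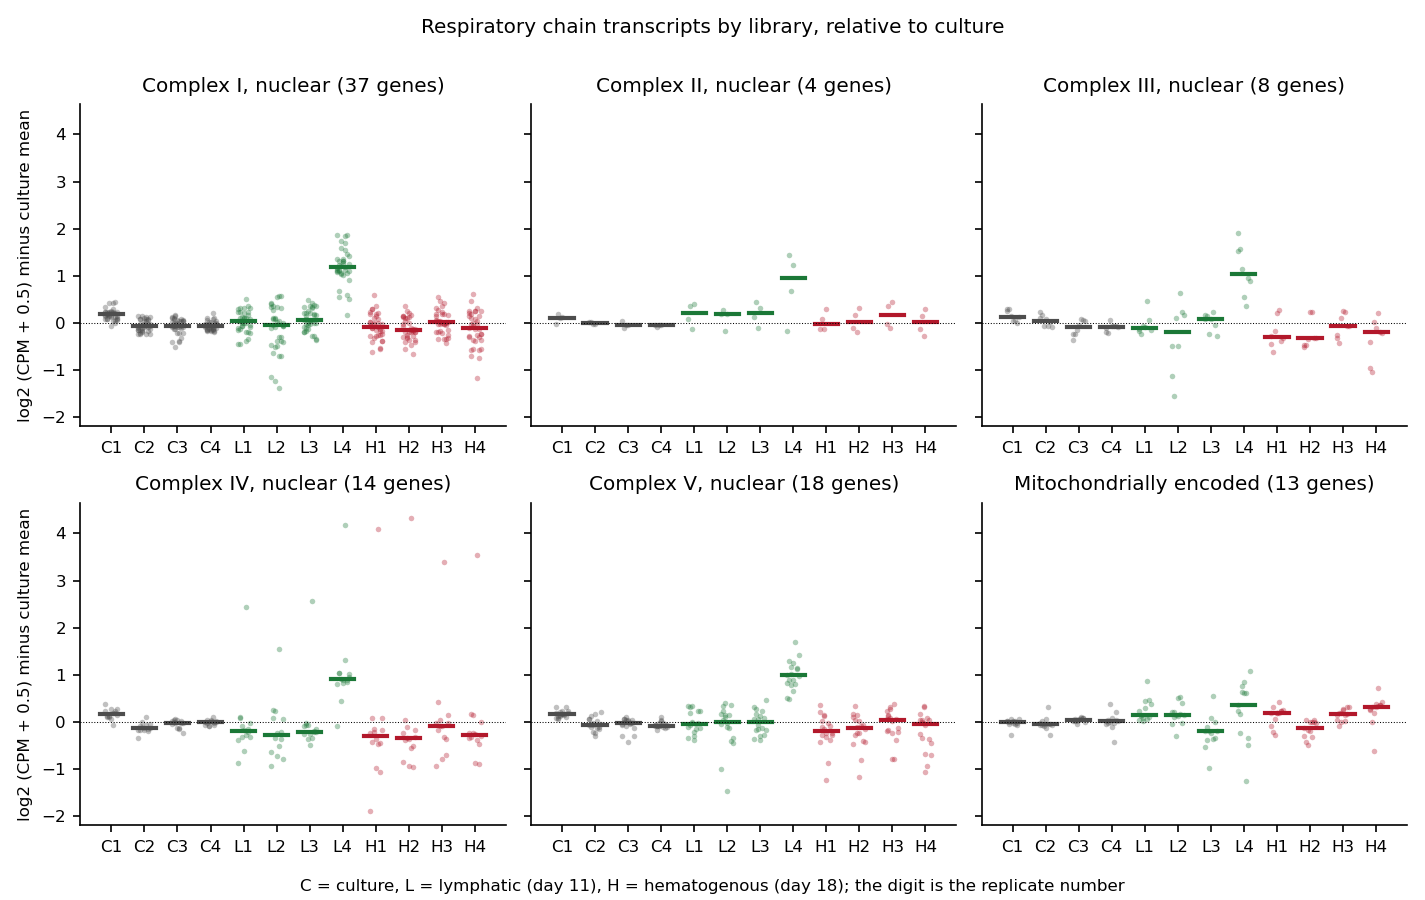
Each point is a gene's log2 (CPM + 0.5) minus its culture mean (y axis) in each of the 12 libraries (x axis), in 1 panel per complex for nuclear genes and 1 for the 13 mitochondrially encoded genes, with the library median as a bar. Lymphatic 4 is raised in the panels of nuclear genes, and the point far above the others in the complex IV panel is Cox6a2.

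Against culture, 13 of 80 tested nuclear subunits were higher in lymphatic libraries and 0 were lower (edgeR quasi-likelihood test, Benjamini-Hochberg adjusted p under 0.05 over 13535 genes, where 13.4% of all genes were called higher and 13% lower). The share of subunits called higher was close to that of all genes, while the count of 0 lower was below it. At an unadjusted p under 0.05 there were 21, and DESeq2 and limma-voom also called 0 nuclear members lower. The median log2 change of the 80 subunits was 0.34, beside 0.04 for all genes. Without lymphatic 4 the fit called 13 higher and 11 lower (background 17.7% and 17.9%), and the median turned to −0.06. Of the 18 nuclear members of any role called higher with all libraries, 17 were called higher without lymphatic 4 as well. The number of subunits called was 7 without culture 1, 3 without culture 2 or culture 4, and 5 without culture 3.

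In complex I, 6 of 37 nuclear subunits rose against culture with all libraries, namely Ndufa9, Ndufa10, Ndufa12, Ndufs1, Ndufs3 and Ndufs4. Without lymphatic 4, 5 of them remained called, Ndufs4 did not (adjusted p = 0.0505), and 4 others fell. The count of 6 was close to the background of 13.4% higher. Without lymphatic 4 both counts were below the background of 17.7% higher and 17.9% lower. These backgrounds hold for the lymphatic counts of the complexes below too. Ndufa9, an accessory subunit near the site of coenzyme Q reduction, was at 137, 135, 136 and 122 CPM in culture 1 to 4. Its lymphatic values were 187, 197, 177 and 290 CPM, and its hematogenous values 152, 149, 176 and 166 CPM. All 4 lymphatic libraries lay above every culture library and every hematogenous library. The log2 change against culture was 0.68 ± 0.14 (SE; adjusted p = 0.00311 by edgeR), and 0.49 ± 0.08 without lymphatic 4 (adjusted p = 0.000176). Its call held in all 12 fits that left out 1 library.

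Ndufs1 carries iron-sulfur clusters and forms part of the NADH-oxidizing arm of complex I. It stood at 177, 168, 187 and 177 CPM in culture, 229, 264, 203 and 199 CPM in lymphatic and 161, 156, 177 and 161 CPM in the hematogenous group. Here lymphatic 4 was the lowest of its group, and the lymphatic values still lay above both other groups. The change was 0.34 ± 0.11 against culture (adjusted p = 0.0313 by edgeR) and 0.38 ± 0.09 without lymphatic 4 (adjusted p = 0.00273), but the call was lost in 6 of the 12 fits without 1 library, those without culture 1 to 4, lymphatic 1 or lymphatic 2. Ndufa12 and Ndufs3, the latter a core subunit of the arm that reaches the membrane, changed by 0.67 ± 0.20 and 0.55 ± 0.17 with all libraries, and by 0.36 ± 0.10 and 0.31 ± 0.09 without lymphatic 4. The change of Ndufa10 was 0.32 ± 0.11, and 0.22 ± 0.08 without lymphatic 4. Its call was lost without any 1 of the culture or hematogenous libraries, and those of Ndufa12 and Ndufs3 without culture 1, 2 or 4. Ndufs4 (0.58 ± 0.20) kept its call only without lymphatic 1, 2 or 3. Of the Ndufa12 transcript 16.04% and of the Ndufs3 transcript 13.8% of 120-base windows occur in pseudogenes, so that their counts are uncertain to that extent.

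The complex I subunits lower against culture only when lymphatic 4 was left out were Ndufa1, Ndufa3, Ndufab1 and Ndufv3. Ndufa3, a small subunit of the membrane arm, was at 94.2, 85.1, 91.4 and 86.5 CPM in culture and at 76.6, 67.7, 68.8 and 168 CPM in lymphatic libraries. Lymphatic 1 to 3 lay below all culture libraries and lymphatic 4 above them. Its change was 0.09 ± 0.24 with all libraries (adjusted p = 0.807 by edgeR) and −0.34 ± 0.08 without lymphatic 4 (adjusted p = 0.00389). Ndufab1, the mitochondrial acyl carrier protein, changed by −0.32 ± 0.09, Ndufa1 by −0.39 ± 0.11 and Ndufv3 by −0.40 ± 0.14 without lymphatic 4. Of the subunits that hold redox centres, Ndufs7, Ndufs8, Ndufv1 and Ndufv2 passed the lymphatic test against culture in neither fit. Ndufs7 ranged from 10.8 CPM in lymphatic 2 to 95.8 CPM in lymphatic 4, wider than its culture range of 21.9 to 38.9 CPM.

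Complex II, the only complex encoded wholly in the nucleus, had 4 members, and 2 of them, Sdhb and Sdhd, rose in the lymphatic group with and without lymphatic 4. Sdhb, the iron-sulfur subunit, was at 138, 123, 113 and 114 CPM in culture. It was at 156, 146, 166 and 331 CPM in lymphatic libraries and at 129, 136, 156 and 135 CPM in hematogenous libraries. All lymphatic libraries exceeded all culture libraries, but lymphatic and hematogenous values overlapped without lymphatic 4. The change was 0.71 ± 0.22 (adjusted p = 0.0263 by edgeR) with all libraries and 0.35 ± 0.09 without lymphatic 4. Sdhd, a membrane anchor, changed by 0.59 ± 0.18, and 0.30 ± 0.08 without lymphatic 4. The calls of both were lost without culture 2, 3 or 4, in the fit of the 2 groups alone and with the replicate number as a block. The flavoprotein Sdha stood at 363 to 389 CPM in culture, 333 to 428 CPM in lymphatic and 342 to 369 CPM in the hematogenous group, and passed the test against culture in neither fit. The other anchor, Sdhc, changed by 0.12 ± 0.17 with all libraries (adjusted p = 0.646 by edgeR).

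Among 8 nuclear subunits of complex III, 1 rose, Uqcrc2, a core protein of the matrix side. Its values were 216, 198, 222 and 198 CPM in culture, 287, 326, 245 and 268 CPM in lymphatic and 254, 244, 246 and 242 CPM in the hematogenous group. Every lymphatic and every hematogenous library lay above every culture library, with lymphatic 4 inside the range of its group. The lymphatic change was 0.43 ± 0.10 (adjusted p = 0.00667 by edgeR) and 0.45 ± 0.09 without lymphatic 4, called in all 12 fits without 1 library. The coding gene Pdzd9 shares 21.8% of the 120-base windows of the Uqcrc2 transcript. The Rieske protein Uqcrfs1 was at 129 to 141 CPM in culture and at 131 to 261 CPM in lymphatic libraries (change 0.35 ± 0.18, adjusted p = 0.174).

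In complex V, 3 of 17 nuclear subunits rose, and these were 3 of the F1 head, Atp5a1, Atp5b and Atp5c1, which encode alpha, beta and gamma. Atp5b, which holds the catalytic sites, was at 1575, 1434, 1546 and 1392 CPM in culture, 1838, 1884, 1674 and 2083 CPM in lymphatic and 1513, 1520, 1645 and 1527 CPM in the hematogenous group. The lymphatic libraries lay above all 8 others. The changes against culture were 0.33 ± 0.10 for Atp5a1, 0.33 ± 0.10 for Atp5b and 0.42 ± 0.14 for Atp5c1, and 0.27 ± 0.08, 0.27 ± 0.08 and 0.26 ± 0.09 without lymphatic 4. Their calls were lost without culture 2, culture 3 or culture 4, that of Atp5a1 also without lymphatic 1, and that of Atp5c1 in 9 of the 12 fits that left out 1 library. Atp5f1, subunit b of the peripheral stalk, was called without lymphatic 4 only (0.22 ± 0.08, adjusted p = 0.0454 by edgeR). The c-ring genes Atp5g1, Atp5g2 and Atp5g3 changed by 0.57 ± 0.29, 0.14 ± 0.30 and 0.24 ± 0.19 and were not called. Pseudogenes hold 55.6% of the windows of Atp5g1 and 86.0% of those of Atp5g2.

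Complex IV had more subunits called lower than higher without lymphatic 4. With all libraries 1 of 14 tested subunits was higher against culture, Cox6a2, and none lower by edgeR (1 at an unadjusted p under 0.05, which was Cox6a2). Without lymphatic 4, Cox6a2 stayed higher and 7 of 14 were lower, Cox4i1, Cox6a1, Cox6b1, Cox6c, Cox7a2l, Cox7b and Cox7c, with a background of 17.9% lower over all genes. The median of the 14 was 0.13 with all libraries and −0.25 without lymphatic 4. Without lymphatic 4, nuclear members had medians of −0.13 below 800 nt, 0.08 from 800 to 1500 nt and 0.20 from 1500 nt. Over all tested coding genes these were −0.09, −0.01 and −0.02. Cox4i1, Cox6a1, Cox6b1, Cox6c and Cox7c have transcripts below 800 nt, and Cox7b and Cox7a2l have 1001 and 1076 nt. The part of length in these falls was not tested. Cox4i1, the subunit through which ATP inhibits the enzyme, was at 436, 330, 359 and 373 CPM in culture and at 283, 238, 348 and 652 CPM in lymphatic libraries. Lymphatic 3 overlapped the culture range and lymphatic 4 exceeded it. Its change was −0.38 ± 0.12 without lymphatic 4 (adjusted p = 0.0215 by edgeR) and 0.02 ± 0.24 with it.

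Cox6a1, the form of subunit VIa found in most tissues, was at 274, 201, 208 and 232 CPM in culture, 148, 137, 160 and 419 CPM in lymphatic and 114, 119, 132 and 124 CPM in the hematogenous group. Lymphatic 1 to 3 and all hematogenous libraries lay below all culture libraries, while lymphatic 4 was the highest of the 12. Without lymphatic 4 the lymphatic change was −0.63 ± 0.10 (adjusted p = 0.00018 by edgeR). The other lower subunits without lymphatic 4 were Cox6c (−0.44 ± 0.14), Cox7c (−0.38 ± 0.10), Cox7a2l (−0.35 ± 0.08), Cox6b1 (−0.27 ± 0.09) and Cox7b (−0.23 ± 0.08). Cox7a2l takes part in joining complexes III and IV, and Cox6b1 links the monomers of the enzyme. Windows shared with pseudogenes were 37.0% for Cox7c, 9.82% for Cox7a2l and 6.77% for Cox6c. Cox5a, Cox5b and Ndufa4, an oxidase subunit in spite of its name, changed by 0.03 ± 0.10, 0.02 ± 0.10 and −0.05 ± 0.09 without lymphatic 4 and were not called.

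**Figure D3:**
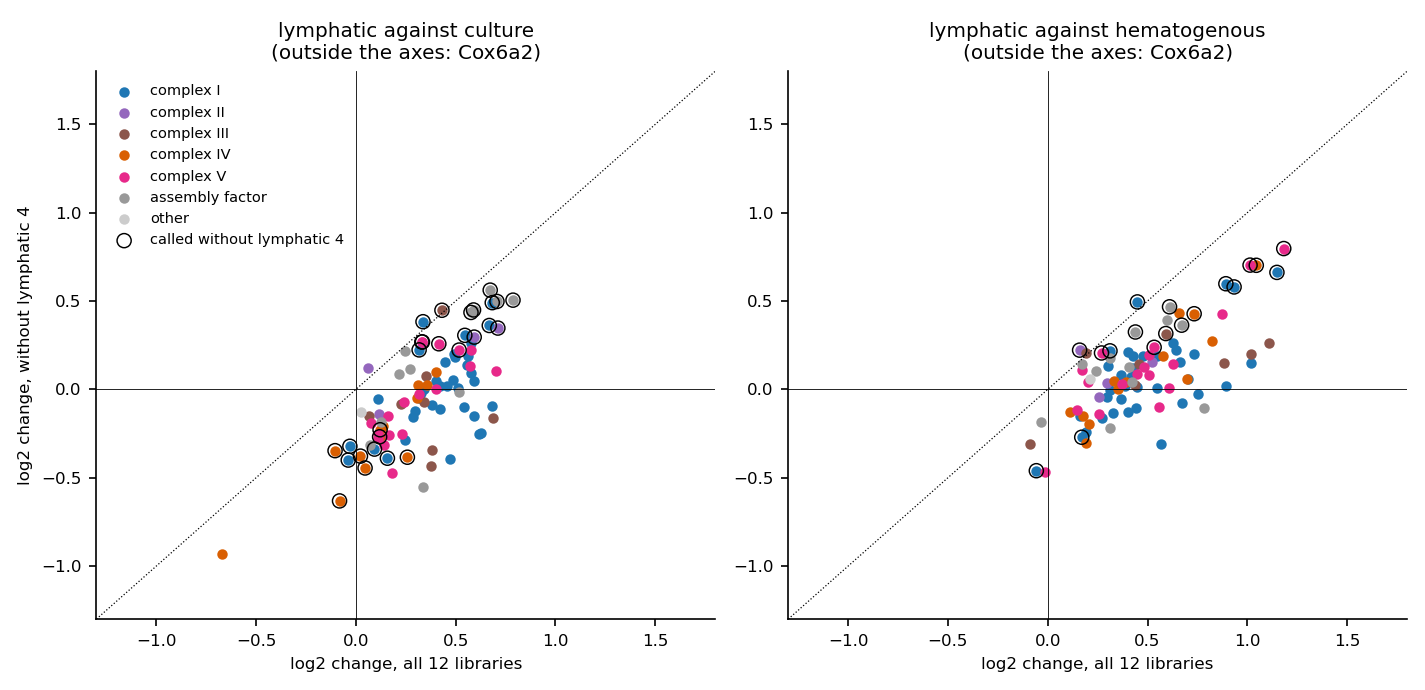
Each point is a tested nuclear member, with its log2 change in the fit of all 12 libraries (x axis) and in the fit without lymphatic 4 (y axis), for lymphatic against culture and lymphatic against hematogenous. Points lie mostly below the dotted line of equality, Cox6a1 of complex IV lies at −0.63 on the y axis and −0.08 on the x axis, circles mark calls without lymphatic 4, and Cox6a2 lies outside the axes.

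Between hematogenous and culture libraries, 1 of 80 nuclear subunits was higher and 5 were lower (13.9% of all genes were called higher and 13.9% lower), both below the share of all genes. The higher one was Cox6a2. The lower ones were Usmg5 and Atp5j2 of ATP synthase and Cox8a, Cox6a1 and Cox7a1 of complex IV. DESeq2 and limma-voom called the same 5 lower and the same 1 higher. The median of the 80 subunits was −0.11, beside −0.00 for all genes. This comparison holds no lymphatic library, but its fit takes the spread from all 12. Without lymphatic 4 it called 7 higher and 26 lower of 80, with a background of 21.8% and 21.3%. Fitted on the 8 libraries of culture and hematogenous alone, it called 9 higher and 31 lower, with a background of 25.1% and 25.4%.

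Usmg5 encodes a small membrane subunit of ATP synthase that helps to hold dimers of the enzyme. It was at 189, 137, 174 and 181 CPM in culture, 138, 157, 130 and 312 CPM in lymphatic and 71.7, 74.8, 97.0 and 81.1 CPM in hematogenous libraries. All hematogenous libraries lay below all 8 others. The change against culture was −1.07 ± 0.24 (adjusted p = 0.00402 by edgeR) and was the same to 2 decimals without lymphatic 4. Pseudogenes share 22.6% of its windows.

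Cox8a, the only form of subunit VIII that was tested, stood at 246, 189, 220 and 214 CPM in culture, 196, 187, 186 and 388 CPM in lymphatic and 103, 111, 133 and 117 CPM in the hematogenous group. Atp5j2, subunit f of the membrane part of ATP synthase, stood at 262, 211, 229 and 228 CPM in culture, 209, 213, 211 and 407 CPM in lymphatic and 127, 132, 135 and 121 CPM in the hematogenous group. For both genes the hematogenous libraries lay below all others, and lymphatic 1 to 3 were near the lowest culture library. The changes against culture were −0.91 ± 0.21 for Cox8a (adjusted p = 0.00515 by edgeR) and −0.85 ± 0.19 for Atp5j2 (adjusted p = 0.00384). The calls of Usmg5, Cox8a and Atp5j2 held in all 12 fits without 1 library. Cox6a1 changed by −0.90 ± 0.29 (adjusted p = 0.0317) and lost its call without culture 1, culture 4 or any 1 of the hematogenous libraries, although its hematogenous and culture values did not overlap. Cox7a1 is the heart and muscle form of subunit VIIa, and at 1.91 to 3.42 CPM in culture and 0.320 to 1.90 CPM in hematogenous libraries it was scarce in both (−1.33 ± 0.44, adjusted p = 0.0357, lost without culture 1, culture 3, culture 4 or hematogenous 1, 2 or 3).

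**Figure D4:**
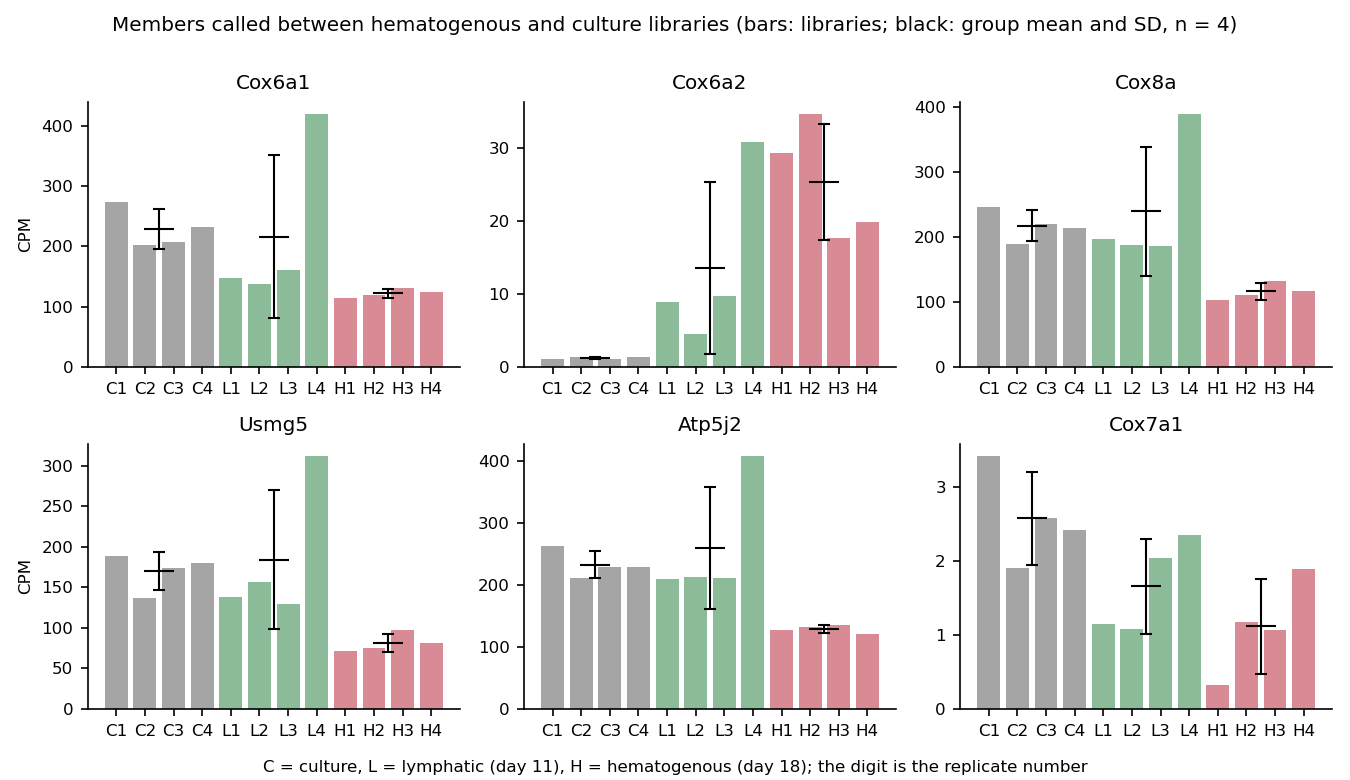
Bars give the CPM of each library (x axis) for the 6 members called between hematogenous and culture libraries, with the group mean and SD (n = 4) in black. Hematogenous libraries are lowest for Cox8a, Usmg5, Atp5j2 and Cox6a1, lymphatic 4 is highest for these genes, and Cox6a2 is near 1 CPM in culture and 17.8 to 34.7 CPM in hematogenous libraries.

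The stretches of genome before the start sites of Cox6a1, Usmg5 and Cox8a are shown because these members fell in the hematogenous group. They are from the RefSeq promoter table of build GRCm38.p6, not the build of the count files, and stop at the first annotated exon. Capitals mark letters of a searched motif, and the sequences are given 5′ to 3′ on the strand of the gene.
Cox6a1, minus strand of chr5:115348982-115349129: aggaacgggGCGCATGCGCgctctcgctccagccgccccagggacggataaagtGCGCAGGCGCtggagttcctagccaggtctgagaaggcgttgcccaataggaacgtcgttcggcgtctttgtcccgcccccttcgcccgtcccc
Usmg5, minus strand of chr19:47090648-47090767: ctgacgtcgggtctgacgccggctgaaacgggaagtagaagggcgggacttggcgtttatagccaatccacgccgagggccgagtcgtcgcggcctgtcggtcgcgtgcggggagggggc
Cox8a, minus strand of chr19:7217617-7217866: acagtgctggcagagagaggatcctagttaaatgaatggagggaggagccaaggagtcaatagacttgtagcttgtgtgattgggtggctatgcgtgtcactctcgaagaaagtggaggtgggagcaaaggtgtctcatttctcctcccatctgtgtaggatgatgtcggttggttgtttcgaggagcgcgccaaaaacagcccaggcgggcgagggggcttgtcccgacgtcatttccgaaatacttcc
The Cox6a1 stretch of 148 bases held the motif of nuclear respiratory factor 1 at 2 places. The stretches of Usmg5 (120 bases) and Cox8a (250 bases) held none of the 6 motifs searched. Cox7a1 and Atp5j2 also fell in the hematogenous group and are not shown. The 223-base stretch of Cox7a1 held none of the motifs either, and annotated exons covered the whole window of Atp5j2.

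Over the 250 bases before the start, and on both strands, the motif of nuclear respiratory factor 1 occurred in 14 of 81 nuclear members in the table (17.3%) and in 3.86% of 27025 promoters. The ETS letters CCGGAAG occurred in 15 members (18.5%) and in 7.05% of promoters, CACGTG in 6 (7.41%) and 6.05%, and TGACGTCA in 4 (4.94%) and 1.62%. The YY1 letters AAGATGG occurred in 0 members and 4.53% of promoters, and ACGTGC, which can overlap CACGTG, in 3 (3.70%) and 4.91%. These are matches of letters and not measured sites of binding.

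Cox6a2 encodes the heart and skeletal muscle form of subunit VIa and rose in both lymph node groups. It was at 1.16, 1.39, 1.07 and 1.38 CPM in culture, 8.91, 4.58, 9.76 and 30.9 CPM in lymphatic and 29.3, 34.7, 17.8 and 19.9 CPM in hematogenous libraries. Every lymph node library lay above every culture library, and lymphatic 4 was the only lymphatic library within the hematogenous range. The log2 change was 3.44 ± 0.56 in lymphatic (adjusted p = 0.000459 by edgeR) and 4.36 ± 0.56 in hematogenous libraries (adjusted p = 4.76e-05). Without lymphatic 4 the lymphatic change was 2.61 ± 0.34. The 2 lymph node groups differed by −0.92 ± 0.44 with all libraries (adjusted p = 0.147) and by −1.76 ± 0.26 without lymphatic 4 (adjusted p = 0.000117). Per kilobase of transcript, Cox6a2 made up 0.465% ± 0.0932 (SD, n = 4) of Cox6a1 and Cox6a2 together in culture, 4.56% ± 1.31 in the lymphatic group and 14.9% ± 4.56 in the hematogenous group, so that Cox6a1 remained the larger part in all 3.

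The other muscle and tissue-restricted forms were scarce or had no counts. Cox8b, the muscle form of subunit VIII, had 1, 1 and 0 counts in the culture, lymphatic and hematogenous groups, and a count of 0 among the hematogenous libraries allows up to 0.0756 CPM by counting error. Cox7a1 was called lower in the hematogenous group. Cox8c and Cox7b2 had 0 counts in all 12 libraries. The lung-associated Cox4i2 had 1, 2 and 3 counts in the 3 groups, the testis form Cox6b2 had 2, 8 and 10, and Ndufa4l2, which hypoxia induces in many cells, had 2, 16 and 3. Per kilobase, Cox6b2 made up 0.0210%, 0.0490% and 0.150% of Cox6b1 and Cox6b2 together, the same order of groups as for Cox6a2, from those few counts and untested. These 6 genes, Cox4i2, Cox6b2, Cox7b2, Cox8b, Cox8c and Ndufa4l2, were the only members left untested by the filter on low counts, so that 107 of 113 were tested.

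Between the 2 lymph node groups, 10 of 80 nuclear subunits were higher in lymphatic libraries and 0 lower (background 11.4% higher and 10.9% lower), with 34 at an unadjusted p under 0.05 and 17 subunits called higher by DESeq2. By limma-voom 1 nuclear member was called lower, Cox6a2. The number of subunits called was 22 without lymphatic 2 and 20 without lymphatic 3. The median was 0.45 over the 80, beside 0.03 over all genes, and 0.08 without lymphatic 4, where 13 were higher and 3 lower (background 15.1% and 16.4%). The comparison shares its lymphatic libraries with that against culture. The 10 were Usmg5 (1.18 ± 0.24), Ndufs8 (1.15 ± 0.29), Cox8a (1.04 ± 0.21), Atp5j2 (1.01 ± 0.19), Ndufb8 (0.93 ± 0.22), Ndufv1 (0.89 ± 0.19), Atp5g1 (0.87 ± 0.29), Cox7a2 (0.73 ± 0.19), Uqcrfs1 (0.59 ± 0.18) and Ndufs1 (0.45 ± 0.11). Together with 3 assembly factors they make 13 members, of which 12 were called without lymphatic 4 as well; the exception was Atp5g1, whose call was lost in 10 of the 12 fits that left out 1 library. Without lymphatic 4 most of the differences were smaller, at 0.80 for Usmg5, 0.66 for Ndufs8, 0.70 for Cox8a, 0.70 for Atp5j2, 0.58 for Ndufb8, 0.60 for Ndufv1, 0.43 for Atp5g1, 0.43 for Cox7a2 and 0.32 for Uqcrfs1, while that of Ndufs1 was 0.49. Cox7a2 lost its call without hematogenous 1, and Uqcrfs1 without hematogenous 1, 2 or 4.

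The 3 redox subunits of complex I called here, Ndufs1, Ndufs8 and Ndufv1, were higher in lymphatic libraries in both fits. Ndufv1, which binds the flavin that takes electrons from NADH, was at 151, 159, 137 and 136 CPM in culture, 180, 138, 186 and 314 CPM in lymphatic and 112, 114, 116 and 98.7 CPM in hematogenous libraries. Ndufs8, with 2 iron-sulfur clusters near the coenzyme Q site, was at 133, 122, 106 and 101 CPM in culture, 134, 88.2, 150 and 317 CPM in lymphatic and 79.0, 72.2, 90.7 and 68.6 CPM in hematogenous libraries. For Ndufv1 the hematogenous libraries lay below all 8 others, and for Ndufs8 lymphatic 2 came within the hematogenous range. Without lymphatic 4 the route differences were 0.60 ± 0.10 for Ndufv1 (adjusted p = 0.000382 by edgeR) and 0.66 ± 0.15 for Ndufs8 (adjusted p = 0.0038). Ndufb8, a membrane arm subunit, was at 117 to 148 CPM in culture, 127 to 282 CPM in lymphatic and 83.6 to 102 CPM in hematogenous libraries, without overlap between the routes. Its route difference was 0.58 ± 0.10 without lymphatic 4.

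The 3 subunits higher in hematogenous than lymphatic libraries without lymphatic 4 were Cox6a2, Ndufb9 and Ndufb10. Ndufb9 was at 64.4, 66.3, 62.6 and 146 CPM in lymphatic and at 94.9, 75.5, 86.7 and 96.5 CPM in hematogenous libraries, a difference of −0.46 ± 0.11 (adjusted p = 0.00392 by edgeR) that was −0.06 ± 0.24 with all libraries. Ndufb10 differed by −0.27 ± 0.09. The coding gene Gm49356 shares 14.2% of the windows of Ndufb9. Higher in lymphatic libraries without lymphatic 4 were also Ndufa10 (0.22 ± 0.08), Sdha (0.22 ± 0.07), Atp5f1 (0.24 ± 0.08) and Atp5b (0.21 ± 0.08).

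Hematogenous against culture without lymphatic 4, the largest called falls of subunits after those above were Ndufs8 (−0.57 ± 0.14), Ndufb8 (−0.53 ± 0.09), Cox6b1 (−0.46 ± 0.08) and Cox7c (−0.44 ± 0.09). The called rises after Cox6a2 were Ndufb9 (0.48 ± 0.10), Ndufs4 (0.41 ± 0.09), Sdhd (0.34 ± 0.07), Ndufa9 (0.28 ± 0.07), Ndufc1 (0.26 ± 0.09) and Uqcrc2 (0.24 ± 0.08). Over all genes this fit called 21.8% higher and 21.3% lower. By complex it called 4 higher and 9 lower of 37 in complex I, 1 and 1 of 4 in complex II, 1 and 2 of 8 in complex III, 1 and 8 of 14 in complex IV, and 0 and 6 of 18 in complex V with its inhibitor. The medians were −0.07, 0.05, −0.23, −0.24 and −0.06 in that order. Lower calls were near the share of all genes in complexes I, II and III and above it in complexes IV and V.

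Assembly factors help build the complexes and are not part of them. Of 12, 5 rose in the lymphatic group with and without lymphatic 4, namely Ndufaf4, Ndufaf5, Ndufaf6, Ndufaf7 and Sdhaf4, and 0 fell in either fit. The background was 13.4% higher and 13% lower with all libraries, and 17.7% and 17.9% without lymphatic 4. Ndufaf7, a mitochondrial methyltransferase, was at 28.6, 26.0, 28.6 and 27.5 CPM in culture, 39.1, 44.3, 39.9 and 53.4 CPM in lymphatic and 34.1, 34.2, 33.7 and 28.1 CPM in hematogenous libraries. Its lymphatic libraries lay above all others, with a change of 0.67 ± 0.13 against culture (adjusted p = 0.00134 by edgeR) and 0.56 ± 0.10 without lymphatic 4. Ndufaf4 changed by 0.59 ± 0.13, Ndufaf5 by 0.58 ± 0.16, Ndufaf6 by 0.71 ± 0.22 and Sdhaf4 by 0.79 ± 0.22, and by 0.45 ± 0.09, 0.44 ± 0.14, 0.50 ± 0.18 and 0.50 ± 0.17 without lymphatic 4. Calls were lost without culture 2 or 4 for Ndufaf5, culture 2, 3 or 4 for Ndufaf6 and culture 4 for Sdhaf4. Between the routes Ndufaf2, Ndufaf4 and Ndufaf7 were higher in lymphatic libraries (0.67 ± 0.20, 0.61 ± 0.13 and 0.44 ± 0.12, or 0.36 ± 0.11, 0.47 ± 0.09 and 0.32 ± 0.10 without lymphatic 4). The call of Ndufaf2 was lost without any 1 hematogenous library and that of Ndufaf7 without hematogenous 1 or 4, and without lymphatic 4 Ndufaf2 also fell in hematogenous against culture (−0.55 ± 0.11).

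The inhibitor Atpif1, which blocks ATP hydrolysis by the synthase, was at 28.1 to 33.2 CPM in culture, 28.7 to 68.3 CPM in lymphatic and 25.3 to 37.7 CPM in hematogenous libraries. It was not called in any comparison, with a change of 0.40 ± 0.25 for lymphatic and 0.14 ± 0.25 for hematogenous against culture.

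The 13 mitochondrially encoded genes took 2.75% to 2.88% of counts in culture, 2.44% to 3.15% in the lymphatic group and 2.59% to 3.32% in the hematogenous group, and the ranges overlapped. In lymphatic 4 their median fold over lymphatic 1 to 3 was 1.32, and their share of 2.68% lay within that of the other libraries. By the test 1 of 13 was higher in lymphatic than in culture libraries, mt-Nd4, and 0 were lower (13.4% and 13% of all genes). None passed for hematogenous against culture by edgeR (0 at an unadjusted p under 0.05) or between the routes (1 at an unadjusted p under 0.05), and DESeq2 and limma-voom called 0 in both as well. Without lymphatic 4, mt-Nd4, mt-Nd4l and mt-Nd5 were higher in lymphatic than in culture libraries (17.7% of all genes were called higher). In the fit of culture and hematogenous libraries alone 4 were higher and 0 lower (25.1% and 25.4% of all genes).

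All 3 genes called without lymphatic 4 are among the 7 mitochondrial genes of complex I, which encode subunits of its proton-pumping membrane arm. The gene mt-Nd4 was at 1209, 1277, 1268 and 1142 CPM in culture, 1653, 1740, 1291 and 2194 CPM in lymphatic and 1401, 1218, 1450 and 1582 CPM in the hematogenous group. All lymphatic libraries exceeded all culture libraries, with a change of 0.49 ± 0.14 (adjusted p = 0.0224 by edgeR) and 0.34 ± 0.11 without lymphatic 4 (adjusted p = 0.018). The call was lost without culture 1 or 4. The gene mt-Nd5 was at 2524, 2568, 2785 and 2724 CPM in culture and at 3662, 3505, 2639 and 1888 CPM in lymphatic libraries. It was lowest in lymphatic 4, and its change was 0.14 ± 0.17 with that library and 0.30 ± 0.11 without it.

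The other mitochondrial genes gave ranges that overlapped between culture and hematogenous libraries or differed by less than the test required. The gene mt-Co1 was at 9093 to 9842 CPM in culture, 8031 to 10984 CPM in lymphatic and 9650 to 11834 CPM in the hematogenous group. The gene mt-Cytb was at 5317 to 5587, 4738 to 6996 and 4960 to 6592 CPM in the same order, and mt-Nd1 at 4828 to 5127, 3504 to 5898 and 4094 to 5966 CPM. The gene mt-Nd2 was at 2401 to 2589, 1922 to 2833 and 1868 to 2515 CPM. In lymphatic 4 mt-Nd6, the one encoded on the other strand, was at 1638 CPM, against 673 to 1003 CPM in lymphatic 1 to 3. The short gene mt-Atp8 was at 7.28 to 10.5, 6.92 to 9.65 and 8.90 to 11.6 CPM.

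Counts of several mitochondrial genes are uncertain because long nuclear copies exist. In mt-Atp6, mt-Co2, mt-Co3, mt-Nd3 and mt-Nd4l, 97.4% to 99.9% of 120-base windows also occur in pseudogenes on chromosome 1, in mt-Nd4 60.1% and in mt-Co1 27.3%. A read that fits both places is not assigned uniquely. Per kilobase, mt-Co2 and mt-Co3 stood at 213 and 93.1 CPM in culture and mt-Co1 at 6117, so that levels of the copied genes cannot be set against those of the others. The 6 genes with under 5% of windows copied, mt-Nd1, mt-Nd2, mt-Nd5, mt-Nd6, mt-Cytb and mt-Atp8, took 1.62% to 1.71% of counts in culture, 1.38% to 1.90% in the lymphatic group and 1.46% to 1.94% in the hematogenous group. The calls of mt-Nd4 and mt-Nd4l rest on genes with copies.

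**Figure D5:**
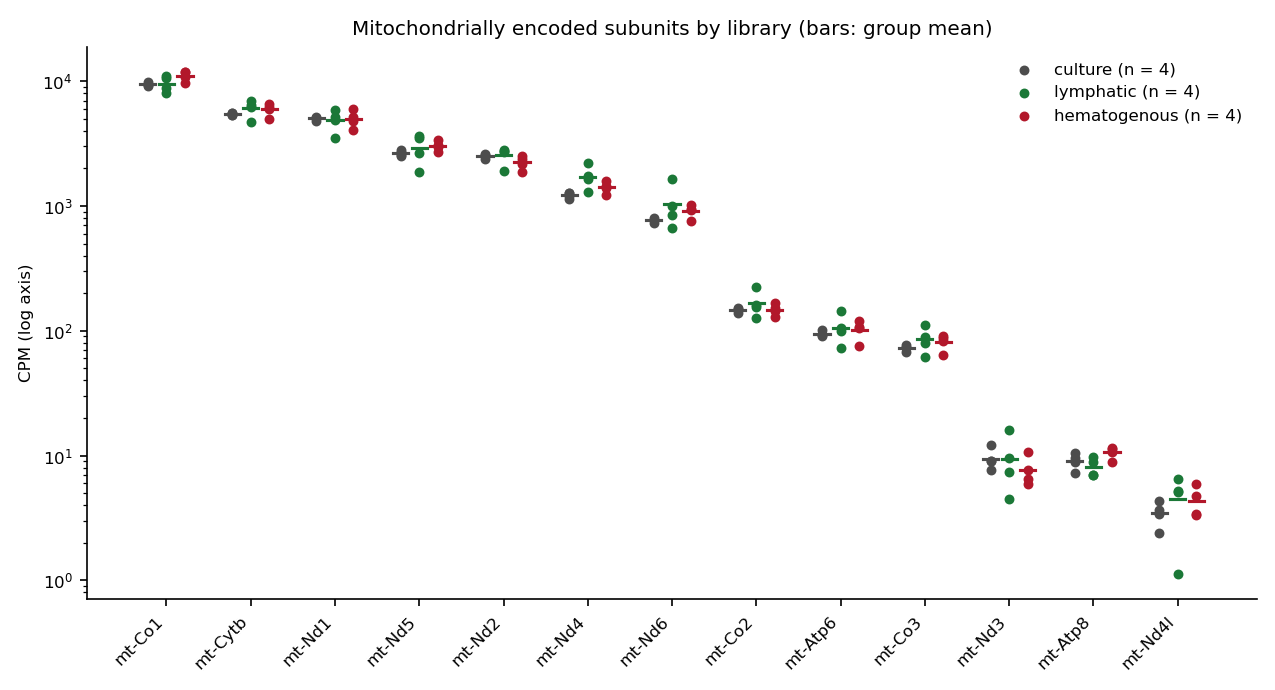
Points give the CPM (log axis) of each library for the 13 mitochondrially encoded genes (x axis, ordered by culture mean), coloured by group (n = 4), with the group mean as a bar. The groups overlap for most genes, mt-Nd4 is higher in all lymphatic than all culture libraries, and the genes with nuclear copies other than mt-Nd4 and mt-Co1 lie at or below 226 CPM.

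Per kilobase of transcript, nuclear subunits of complex V and complex IV were the most abundant and those of complex I the least. Median levels in culture were 228 CPM per kilobase for complex V, 204 for complex IV, 118 for complex II, 109 for complex III and 73.7 for complex I. The highest nuclear member was Atp5b, at 776 in culture, 976 for the lymphatic and 810 for the hematogenous group. In hematogenous libraries the medians were 202, 166, 121, 121 and 70.5 in the same order of complexes. With the longest transcript of each gene, the culture medians were 209 for complex V and 66.6 for complex I, and the others did not change. Complex V and complex IV (204) were then close in culture. The hematogenous medians of complexes V and I were 184 and 68.3 by that choice. Poly(A) selection may capture mitochondrial transcripts differently, so the 2 genomes are not compared.

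Genes around the chain gave the following counts, read against the same backgrounds. Over all genes, 13.4% rose and 13% fell in lymphatic against culture, and 13.9% and 13.9% in hematogenous against culture. Between the routes 11.4% were higher and 10.9% lower. Without lymphatic 4 the backgrounds were 17.7% and 17.9%, 21.8% and 21.3%, and 15.1% and 16.4% in the same order. Of 38 tested assembly factors of other names, 4 rose and 1 fell in lymphatic against culture libraries, 3 rose and 4 fell in hematogenous against culture, and 9 were higher and 1 lower between the routes. Without lymphatic 4 these counts were 5 and 2, 7 and 5, and 7 and 5. Cox19, a copper-handling factor of complex IV assembly, changed by −0.96 in the lymphatic group (−1.29 without lymphatic 4) and −1.82 in the hematogenous group. Of 19 genes of coenzyme Q and mobile carriers, 7 rose and 3 fell in the lymphatic group, among them Coq8a (−1.21), Coq10a (−0.93), Coq4 (0.92) and Coq3 (0.89), and 2 rose and 4 fell in the hematogenous group. Of 29 genes for upkeep of mitochondrial DNA and RNA, 8 rose and 0 fell in the lymphatic group, and 3 rose and 3 fell in the hematogenous group, where the transcription termination factors Mterf1a (1.76) and Mterf2 (1.51) rose. Leaving out lymphatic 4 gave lymphatic counts of 8 and 3 for the coenzyme Q list, with Coq4 at 0.65, and 11 and 0 for upkeep, and hematogenous counts of 3 and 6, and 5 and 4.

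Mitochondrial ribosomal proteins, which translate the 13 mitochondrial genes, rose in 24 of 77 and fell in 0 in the lymphatic group, and rose in 3 and fell in 2 in the hematogenous group. Without lymphatic 4 the lymphatic counts were 21 and 1 and the median went from 0.43 to 0.13, and the hematogenous counts were 12 and 11. Backgrounds with all libraries were 13.4% higher and 13% lower for lymphatic, and 13.9% and 13.9% for hematogenous. Without lymphatic 4 they were 17.7% and 17.9%, and 21.8% and 21.3%, above both hematogenous counts. The same backgrounds hold for the 2 lists that follow. Of 18 genes of the TCA cycle, 9 rose and 0 fell in the lymphatic group with and without lymphatic 4, among them Suclg1 (0.71 with all libraries and 0.44 without lymphatic 4). In the hematogenous group 3 rose and 1, Idh2 (−0.87), fell, or 4 and 3 without lymphatic 4. Of 9 regulators of mitochondrial biogenesis, 2 rose and 1 fell in the lymphatic group, namely Gabpb1 (0.46), Nrf1 (0.37) and Nfe2l2 (−0.72). In the hematogenous group 3 rose and 3 fell. Among these, Gabpb1 rose (0.63), and Esrra (−1.36), an estrogen-related receptor, Nfe2l2 (−1.06) and Pprc1 (−0.69) fell. Between the routes Gabpa was lower in lymphatic libraries (−0.43) and Nfe2l2 higher (0.33). Esrra was higher by 1.34 in lymphatic than in hematogenous libraries, and by 0.96 without lymphatic 4, where 2 regulators rose and 2 fell in the lymphatic and 4 and 3 in the hematogenous group.

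Of 11 genes of hypoxia and oxygen sensing, 6 fell and 0 rose in the lymphatic group, and 8 fell and 1 rose in the hematogenous group. Without lymphatic 4, 8 fell and 1 rose in each group. Over all genes 13% fell and 13.4% rose in the lymphatic group, and 13.9% and 13.9% in the hematogenous group. Without lymphatic 4 these were 17.9% and 17.7%, and 21.3% and 21.8%. Bnip3, a mitophagy receptor induced by low oxygen, changed by −3.25 in the hematogenous group and also fell in the lymphatic group (−0.999). Egln1, an oxygen-sensing prolyl hydroxylase, changed by −0.94 and −1.95, and Ldha, lactate dehydrogenase, by −1.23 in the hematogenous group. Of 8 genes of uncoupling and exchange, 2 rose and 1 fell in the lymphatic group, and 2 rose and 0 fell in the hematogenous group, Slc25a20 (1.73) and Ucp2 (0.58). In the fit without lymphatic 4, 3 of the 8 rose and 1 fell in each group.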

How the data were processed

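The deposited files hold counts of reads per Ensembl gene, 1 file per library, for 12 libraries of poly(A) RNA. Per the submitters' processing notes, the tools were FastQC 0.11.9, Trimmomatic 0.39, HISAT2 2.1.0 and HTSeq 2.0.2, with build GRCm39. The annotation release and the strand setting are not given in the sources used here. Summary lines that name no gene, 30.3% to 36.5% of reads, were left out. Symbols, biotypes and transcript lengths came from GENCODE vM21 (GRCm38), another build, so no coordinates of that annotation are printed. Promoter sequences came from RefSeq.

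Counts were filtered for low values, scaled by TMM and fitted over all 12 libraries with edgeR 4.0.16 in R 4.3.3 (quasi-likelihood test, 13535 genes, 9 residual degrees of freedom). A call is a Benjamini-Hochberg adjusted p under 0.05. SEs were derived from the fold change and the F statistic and are approximate. Alternatives were DESeq2 1.42.0, limma-voom (limma 3.58.1), other scalings and filters, a replicate block, and leaving out each library. The computation was tested on simulated data. Ratios between libraries used log2 (CPM + 0.5). Summaries and figures used Python 3.11.15.

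The members and lists were chosen with earlier results of these data known. Named were the 13 mitochondrial genes, isoforms, core subunits, called assembly factors, and up to 8 called members per direction, comparison and fit. For 1 member, included in the totals, values are not reported here. In the lists around the chain up to 4 called genes by size of change could be named. The transcript that gives a gene's length was changed after values were seen, because the first choice gave some short genes a very long transcript. Values by the longest transcript are given for the long class and rho of lymphatic 4 and for the medians by complex. They are not given for the other values that use length.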

Additional observations from a re-analysis of the deposited data

Results flagged for a closer look

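In groups of 4 libraries, 1 library lay far from the other 3 in 16 of 93 checks, 11 of them in lymphatic 4. Chance gives about 1 in 20 for a single check. These checks share libraries and genes, and many of the single genes had been called in these data, so their number cannot be set against that rate. The share of the 100 nuclear genes was 2.00% in lymphatic 4, against 1.24% to 1.28% in the other lymphatic libraries, and 1.22% in hematogenous 3, against 1.11% to 1.12%. By complex, lymphatic 4 held nuclear shares of 0.528% for complex I, 0.163% for complex III, 0.374% for complex IV and 0.780% for complex V. Culture 1 held 0.306% for complex I, and lymphatic 3 held 0.486% for mt-Cytb, below the rest of its group.

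Single genes gave the same picture in lymphatic 4: Cox6a1 at 419 CPM, Cox8a at 388 CPM, Usmg5 at 312 CPM, Atp5j2 at 407 CPM, Ndufb8 at 282 CPM and Sdhb at 331 CPM. In hematogenous 3, Cox4i1 was at 369 CPM and Atp5b at 1645 CPM, above the other 3.

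The change from culture differed between the routes by edgeR's test for 13 members, which is the same quantity as lymphatic minus hematogenous. The log2 differences were 1.18 for Usmg5, 1.15 for Ndufs8, 1.04 for Cox8a, 1.01 for Atp5j2, 0.93 for Ndufb8, 0.89 for Ndufv1, 0.87 for Atp5g1, 0.73 for Cox7a2, 0.67 for Ndufaf2, 0.61 for Ndufaf4, 0.59 for Uqcrfs1, 0.45 for Ndufs1 and 0.44 for Ndufaf7. Without lymphatic 4 they moved by over 1.5 times for Ndufs8 (0.66), Ndufb8 (0.58), Atp5g1 (0.43, not called), Cox7a2 (0.43), Ndufaf2 (0.36) and Uqcrfs1 (0.32).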

How the results depend on the processing

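No member called with all libraries (19 for lymphatic against culture, 6 for hematogenous against culture and 13 between routes) turned direction under the alternatives run; some called only without lymphatic 4 did, such as Ndufa3 (−0.34, and 0.09 with it) and Cox4i1 (−0.38 and 0.02). The 13 nuclear subunits called for lymphatic against culture became 31 with no filter on low counts, 3 with only those 2 groups in the fit, 4 with the replicate block, and 3 to 24 when 1 library was left out. The 6 for hematogenous against culture became 13 with no filter, 40 with 2 groups, and 4 to 33 without 1 library. The 10 for lymphatic against hematogenous became 17 with DESeq2, 41 with no filter, and 7 to 22 without 1 library. Replicate numbers did not pair the libraries (correlations of same-numbered libraries −0.181 to 0.0919). Of the mitochondrial genes, the 1 called for lymphatic against culture became 2 with no filter, 0 with 2 groups, and 0 to 3 without 1 library; the 0 for hematogenous against culture became 4 with 2 groups, and the 0 between routes 0 to 1 without 1 library. Without 1 library, median changes ran from 0.0044 to 0.58 for complex I and −0.12 to 0.47 for complex III against culture in lymphatic, and 0.098 to 0.59 for complex V between routes, lowest without lymphatic 4. As shares of coding counts without ribosomal proteins, mitochondrial genes took 3.21%, 3.31% and 3.41% in culture, lymphatic and hematogenous, and nuclear genes 1.41%, 1.70% (1.40% to 2.50%) and 1.30%. The causes were not tested.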
